A study of Mus musculus with 2 samples.

Results

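Alcohol dehydrogenases (ADH) and aldehyde dehydrogenases (ALDH) were examined in mouse liver by following 10 genes, Adh1, Adh4, Adh5, Aldh1a1, Aldh1a7, Aldh1b1, Aldh1l1, Aldh2, Aldh3a2 and Aldh9a1. They were chosen by gene name from 37146 gene identifiers in the deposited tables, and each name matched 1 identifier in both tables. The study gave CD-1 mice, an outbred strain, titanium dioxide nanoparticles (NP) by mouth with a syringe, at 50 mg per kg body weight per day after 30 min of ultrasonic stirring. Control mice received the same volume of phosphate-buffered saline (PBS). Each group is represented by 1 liver RNA-seq library, named Control and NP here. No source used here gives the animals behind a library, their age and sex, or the number of doses. With 1 library per group no difference has a replicate check, so the values describe these libraries and not the treatment.

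Several of these enzymes work in sequence. An alcohol dehydrogenase oxidises an alcohol to an aldehyde, and an aldehyde dehydrogenase oxidises the aldehyde to an acid, both with NAD or NADP as the cofactor. In hepatocytes the sequence clears dietary ethanol by way of acetaldehyde and turns retinol into retinoic acid by way of retinaldehyde. Single members also remove formaldehyde, bound to glutathione, and the fatty aldehydes left by lipid breakdown. The members sit in different compartments: ADH1, ADH4, ADH5, ALDH1A1 and ALDH1L1 in the cytosol, ALDH2 and ALDH1B1 in mitochondria, and ALDH3A2 largely in the endoplasmic reticulum.

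The deposited intervals of the libraries overlapped for 6 of the 10 genes and were separate for 4, all aldehyde dehydrogenases. Separate intervals were found for 17.3% of the 10543 genes kept for comparison and for 34.1% of those averaging 50 FPKM or more. Of the 10 genes 8 reach that level, and 2 of these 8 had separate intervals. Aldh1a7, Aldh1b1 and Aldh1a1 were higher in NP, at 2.15, 1.54 and 1.21 times their Control levels. Aldh3a2 was 1.35-fold lower. The genes of the main ethanol and acetaldehyde enzymes, Adh1 and Aldh2, were at 0.970 and 1.05 times their Control levels. Levels are FPKM, fragments per kilobase of row length scaled to the number of mapped fragments, summed over all rows of a gene. Ranges in parentheses are the deposited 95% intervals, which describe the estimate within a library and hold no spread between animals.

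The neighbours Aldh1a1 and Aldh1a7 are shown first by the sequence upstream of their starts, because both were higher in NP and the upstream stretches resemble each other. RefSeq promoter entries (build GRCm38.p6) matched 9 of the 10 genes by symbol, and Aldh2 had no entry. Aldh1a1 and Adh5 had 2 entries each, of which 1 was used. The 250 bases before the start are printed 5′ to 3′, with the longest run common to both genes in capitals. The Aldh1a1 stretch is chr19:20601718-20601967, plus strand, and that of Aldh1a7 is chr19:20727557-20727806, minus strand.
Aldh1a1: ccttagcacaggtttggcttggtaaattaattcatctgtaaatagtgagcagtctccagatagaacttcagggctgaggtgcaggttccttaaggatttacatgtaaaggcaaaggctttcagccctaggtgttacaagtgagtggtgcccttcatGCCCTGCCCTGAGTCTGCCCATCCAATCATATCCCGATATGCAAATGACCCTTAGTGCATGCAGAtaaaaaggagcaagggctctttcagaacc
Aldh1a7: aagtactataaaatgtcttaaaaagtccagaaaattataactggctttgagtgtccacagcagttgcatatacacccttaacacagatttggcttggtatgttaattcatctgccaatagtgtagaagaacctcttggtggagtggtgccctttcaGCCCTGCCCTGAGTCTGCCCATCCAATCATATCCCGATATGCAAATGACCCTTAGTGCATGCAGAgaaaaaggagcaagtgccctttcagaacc
The common run is 65 bases long and lies from position -94 to -30 in both, counting back from -1 as the last base before the start. Over the 100 bases next to the start, 94 were identical without gaps, and over all 250 bases 129 were. The other 35 pairs among the 9 stretches shared 16 to 41 of 100 positions. The run holds a CCAAT box (letters CCAAT, searched on both strands), which was present in 33.8% of all 32851 RefSeq stretches of this length. It was present in 6 of the 9 stretches here, also in those of Adh4, Aldh1l1 and Aldh9a1, whose intervals overlapped, and of Aldh3a2, which was lower in NP. A match of letters is a description and shows no binding.

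For the other pair of genes with separate intervals, Aldh1b1, higher in NP, and Aldh3a2, lower, the 250 bases before the start each hold a GC box. Capitals mark CCAAT or a GC box (letters GGGCGG), on either strand. The Aldh1b1 stretch is chr4:45798772-45799021, plus strand, and the Aldh3a2 stretch is chr11:61267187-61267436, minus strand, both in GRCm38.p6.
Aldh1b1: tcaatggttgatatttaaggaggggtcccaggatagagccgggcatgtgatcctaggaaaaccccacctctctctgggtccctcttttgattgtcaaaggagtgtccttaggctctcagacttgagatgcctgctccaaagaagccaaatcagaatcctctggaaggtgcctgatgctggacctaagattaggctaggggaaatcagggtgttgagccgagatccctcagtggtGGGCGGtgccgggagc
Aldh3a2: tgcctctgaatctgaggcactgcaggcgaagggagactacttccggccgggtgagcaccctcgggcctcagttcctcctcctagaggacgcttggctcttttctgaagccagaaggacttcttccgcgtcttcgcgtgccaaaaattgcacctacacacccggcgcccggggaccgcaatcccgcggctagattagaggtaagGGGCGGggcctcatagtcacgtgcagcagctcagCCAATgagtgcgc
The GC box was present in 4 of the 9 stretches and in 32.7% of all. It was also in the stretches of Adh5 and Aldh1l1, whose intervals overlapped between the libraries. The composition was 53.2% G or C in Aldh1b1 and 61.2% in Aldh3a2, against 46.4% in Aldh1a1, 43.2% in Aldh1a7 and a median of 52.4% over all stretches. The ER stress element, named here because the study's title concerns endoplasmic reticulum stress, was searched on both strands as CCAAT, 9 bases of any kind and CCACG. It was found in 0 of the 9 stretches and in 0.113% of all, which says only that these letters are not in this window.

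Liver identity and depth were checked before the comparisons. All 6 hepatocyte markers (Alb, Apoa1, Fabp1, Serpina1a, Trf and Ttr) were abundant in both libraries, with a summed level of 51282 FPKM in Control and 65030 in NP. All 6 were higher in NP, with Alb at 21660 and 30741 FPKM and Serpina1a at 4564 and 4597. Of 43 markers of other cell types named in the tables, 28 were lower and 12 higher in NP, and the remaining 3 (Lep, Retn and Ngp) were listed at 0 in both. Only 23 of the 43 passed the filter, with a mean of at least 1 FPKM, so many of these directions rest on values near 0. The median difference of all kept genes was -0.03 on the scale of log2(FPKM + 1). Summed levels were 83.4 and 63.4 FPKM for sinusoidal endothelium, 31.9 and 16.6 for Kupffer cells and macrophages, 88.96 and 73.3 for stellate cells, and 17.6 and 14.2 for cholangiocytes. They were 736 and 659 FPKM for erythroid markers, 2.44 and 2.60 for lymphoid markers, 4.54 and 5.38 for neutrophil markers, and 0.0183 and 0.504 for adipocyte markers. The part of cell makeup in the results below was not tested, and in bulk tissue fewer cells of a type and less RNA per cell cannot be told apart. Coverage per FPKM was 1.28 times higher in NP. The half-width of the interval ran from 3.76% to 16.5% of the value over the 10 genes in Control and from 3.77% to 12.8% in NP.

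**Figure D1:**
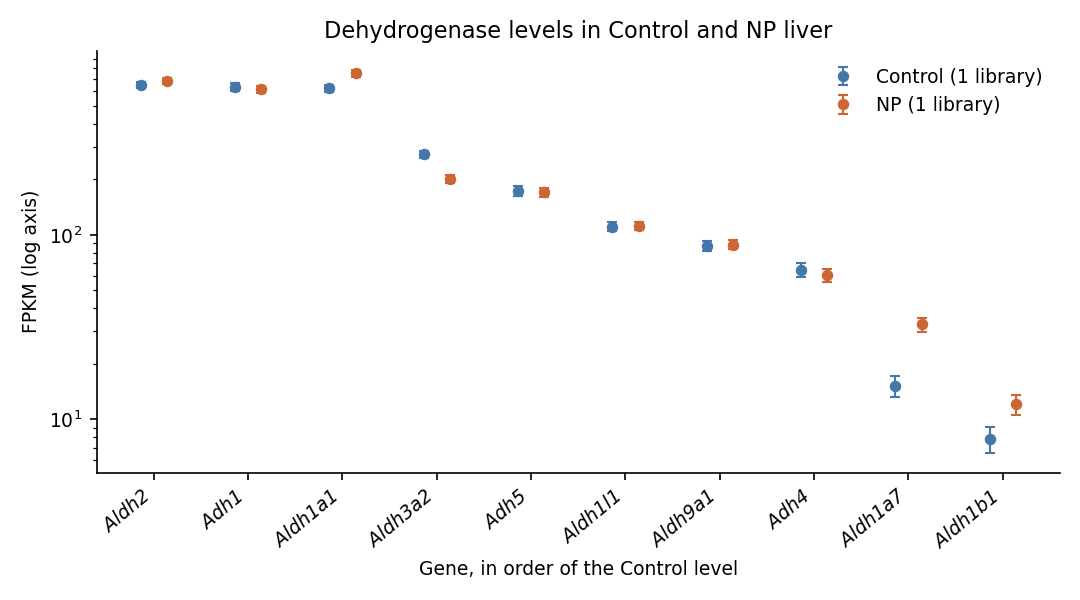
FPKM of the 10 genes on a log axis, in order of the Control level; points are single libraries and bars the deposited 95% intervals. Aldh2, Adh1 and Aldh1a1 lie together near the top, from 616 to 752 FPKM, and Aldh1b1 is lowest at 7.80 and 12.01 FPKM.

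Levels spanned a wide range, and 3 genes held most of the RNA. The highest member was 83.4 times the lowest in Control and 62.6 times in NP. Adh1, Aldh1a1 and Aldh2 together made up 72.3% of the summed FPKM of the 10 genes in Control and 75.1% in NP. In each library 7 of the 10 genes were among the highest 10% of the 10543 genes kept, which had a mean of at least 1 FPKM. All 10 passed this filter. In Control the order from the top was Aldh2, Adh1, Aldh1a1, Aldh3a2, Adh5, Aldh1l1, Aldh9a1, Adh4, Aldh1a7 and Aldh1b1. The intervals of Aldh2 and Adh1 overlapped, as did those of Adh1 and Aldh1a1, while all later neighbours were separate. In NP the order was Aldh1a1, Aldh2 and Adh1, then as in Control, and no neighbours overlapped.

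The alcohol dehydrogenases were alike in the libraries. Adh1 encodes the class I enzyme that oxidises most ethanol and also acts on retinol. It stood at 636 FPKM (606 to 666) for Control and 616 (588 to 645) for NP. Adh4, a class II enzyme, was at 64.9 FPKM (59.4 to 70.3) and 60.6 (55.5 to 65.6). Adh5, the class III enzyme that oxidises the glutathione adduct of formaldehyde and reduces S-nitrosoglutathione, was at 173 FPKM (163 to 183) and 170.2 (161 to 179.9). All 3 intervals overlapped between the libraries, and the ratios of NP to Control were 0.970, 0.933 and 0.984. The summed level was 874 FPKM in Control and 847 in NP.

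These 3 genes lie in a cluster on chromosome 3 of build mm9, the build named by the submitters. Adh1 spans 137923955 to 137953662, Adh4 138078430 to 138093856 and Adh5 138106057 to 138118463. The cluster of 7 loci from Adh7 to Adh5 covers 238 kb. Its other loci were below 1 FPKM, apart from Adh7, a class IV enzyme better known from stomach, which stood at 5.25 FPKM (4.81 to 5.68) for Control and 4.91 (4.51 to 5.31) for NP. For Adh6a the Control library held 0.00117 FPKM, and in NP it was listed at 0. Adh6b was at 0.125 and 0.0550 FPKM, and the pseudogene Adh6-ps1 at 0.741 and 0.112 FPKM.

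Among the cytosolic aldehyde dehydrogenases, both Aldh1a genes were higher in NP. Aldh1a1 encodes the main retinaldehyde dehydrogenase of adult mouse liver (mm9 chromosome 19, 20676451 to 20717952). It stood at 624 FPKM (596 to 652) for Control and 752 (719 to 785) for NP, a ratio of 1.21 with separate intervals. Aldh1a7, a close rodent relative of Aldh1a1, lies 49.5 kb away (20767443 to 20802052). It stood at 15.2 FPKM (13.3 to 17.1) for Control and 32.7 (29.8 to 35.6) for NP, a ratio of 2.15. On the scale of log2(FPKM + 1) its difference was 1.06, and 110 of the 10543 genes had a higher one. Its rank by level among them was 3465 in Control and 1919 in NP.

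Aldh1a7 was scarce beside its neighbour, at 2.44% of the Aldh1a1 level in Control and 4.35% in NP. In the GENCODE M21 transcripts the coding sequences of Aldh1a1 and Aldh1a7 were 91.6% identical over 1506 aligned bases. The longest identical stretch of the transcripts was 100 bases, and 7.49% of the 50-base words of Aldh1a7 also occurred in Aldh1a1. No source used here gives the read length, so how far reads could be exchanged between the genes is unknown and the Aldh1a7 value is uncertain. The sum of both genes was 639 FPKM (611 to 668) for Control and 785 (751 to 818) for NP, 1.23 times as much. No other pair within the ADH genes or within the ALDH genes shared a 50-base word, and pairs of an ADH with an ALDH gene were not compared. The coding sequences of the ADH genes were 64.8% to 67.6% identical in pairs, and those of the mitochondrial Aldh2 and Aldh1b1 71.2%.

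The other cytosolic members were close to their Control values in NP. Aldh1l1 encodes 10-formyltetrahydrofolate dehydrogenase, which releases a folate-bound carbon unit as carbon dioxide. It stood at 111 FPKM (105 to 117) for Control and 112 (106 to 118) for NP. Aldh9a1, which oxidises aminoaldehydes and takes part in carnitine synthesis, was at 87.0 FPKM (81.8 to 92.1) and 88.5 (83.4 to 93.6). Both pairs of intervals overlapped. Aldh1l1 spans chromosome 6 from 90436421 to 90550197 and Aldh9a1 chromosome 1 from 169280122 to 169298661 (mm9).

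In mitochondria, the abundant Aldh2 and the scarce Aldh1b1 differed in what they showed. Aldh2 encodes the enzyme that clears most acetaldehyde (mm9 chromosome 5, 122016036 to 122043833). Its gene level was 651 FPKM (626 to 675) for Control and 680.4 (655 to 706) for NP, with overlapping intervals. Aldh1b1, a related acetaldehyde and retinaldehyde enzyme (mm9 chromosome 4, 45811894 to 45817476), was at 7.80 FPKM (6.51 to 9.09) and 12.01 (10.5 to 13.5). These intervals were separate, and the ratio was 1.54. The sum of both mitochondrial genes was 659 FPKM (634 to 683) for Control and 692 (667 to 718) for NP.

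Aldh2 was the only member of the 10 with more than 1 transcript row above 0, and its rows went in opposite directions. The 1803-nt row stood at 452 FPKM (429.9 to 475) for Control and 506 (482 to 530.4) for NP. The 3867-nt row stood at 199 FPKM (189 to 208) for Control and 174 (165 to 183) for NP. Both pairs of intervals were separate, and the long row went from 30.5% to 25.6% of the gene, a shift of 4.92 percentage points. The rows overlap in position, so the split of reads between them is an estimate and the row values are not independent. The interval of the gene level leaves out covariance between the rows. In GENCODE M21 the long transcript has 1560 coding bases and 1964 bases after them, and the short one, of 1799 bases there, 1416 coding bases and 284 after them. For comparison, 217 genes averaged 50 FPKM or more and had 2 transcript rows of at least 20% each. Over them the median shift was 4.66 percentage points and 101 genes shifted more than Aldh2. As for Aldh2, 16 of the 217 genes, 7.37%, had 1 row wholly higher and the other wholly lower in NP.

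**Figure D2:**
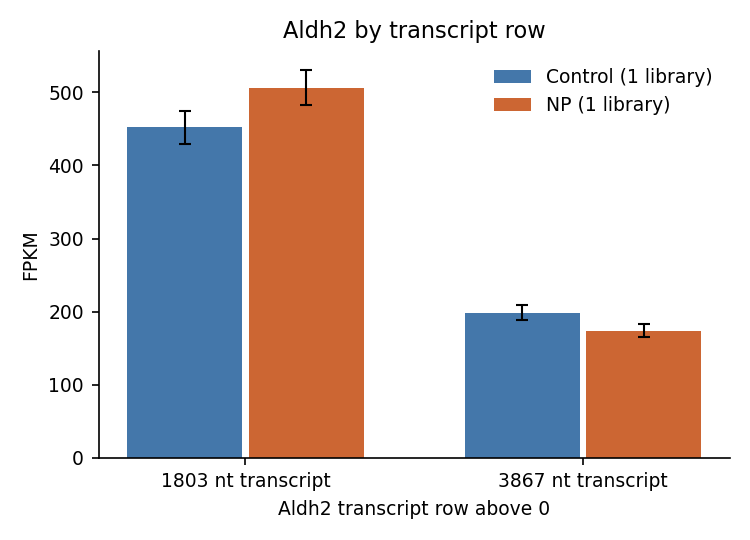
FPKM of the Aldh2 transcript rows above 0, by row length; bars are single libraries and error bars the deposited 95% intervals. The 1803-nt row was higher in NP, at 452 and 506 FPKM, and the 3867-nt row lower, at 199 and 174 FPKM.

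Aldh3a2 was the only member of the 10 with its whole interval lower in NP. It encodes fatty aldehyde dehydrogenase, which oxidises long-chain aldehydes from fatty alcohols, sphingolipids and phytol, and whose loss causes Sjögren-Larsson syndrome in humans. It stood at 273 FPKM (260.1 to 286) for Control and 202 (192 to 211) for NP, with separate intervals and a ratio of 0.739. All of this level lay in 1 transcript row of 3091 nt, while the other 8 rows of the gene were listed at 0 in both libraries. The gene spans chromosome 11 from 61036919 to 61080966 in mm9. Its read coverage was lower in NP, at 644 and 603, although NP was the more deeply covered library. Coverage of the other members' main transcript rows was 1.20 to 2.95 times higher in NP, and that of the 3867-nt Aldh2 row 1.13 times. Coverage comes from the same reads as FPKM and is no separate check of the difference.

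The row structure of the remaining genes was simple. The 10 genes had 44 rows in each table, 34 transcripts and 10 spans of whole genes, and 13 rows were above 0, the same ones in both libraries. All transcript rows above 0 were annotated as protein-coding in GENCODE M21. Rows spanning the whole gene, which can also take intronic reads, were above 0 for Adh4 at 2.46 and 1.90 FPKM and for Aldh1l1 at 0.601 and 0.573 FPKM. The Adh4 span row made up 3.79% of the gene in Control and 3.13% in NP. No other gene averaging 1 FPKM or more overlaps the span of any of the 10 genes.

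Set against all genes, the counts were as follows. On the log2(FPKM + 1) scale 1 of the 10 genes, Aldh1a7, was at least 1.5-fold higher in NP, where 3.59% of the kept genes were. Of the 10 genes 0 were at least 1.5-fold lower, where 5.33% of the kept genes were. Aldh1b1 lay just under the limit on this scale, at 0.56, and over it by plain FPKM. With a looser limit of 0.32 in log2, 2 of the 10 genes were higher and 1 lower, beside 10.2% and 14% of kept genes. Separate intervals were found for 4 of the 10 genes, with NP higher in 3 and lower in 1, beside 17.3% of kept genes, 7.71% with NP higher and 9.58% with NP lower. Intervals narrow with abundance, however, and of the 1373 genes averaging 50 FPKM or more 34.1% had separate intervals, 19.2% with NP higher and 14.9% with NP lower. Of the 8 members at that level 2 did, 1 in each direction. None of these 8 was past 1.5-fold, as 3.13% of such genes were upward and 2.99% downward. The median log2 difference was 0.02 over the 10 genes, -0.03 over all kept genes and 0.03 over those with at least 50 FPKM. Within 1.1-fold on this scale lay 6 of the 10 genes, beside 42.1% of kept genes and 50% of those with at least 50 FPKM.

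**Figure D3:**
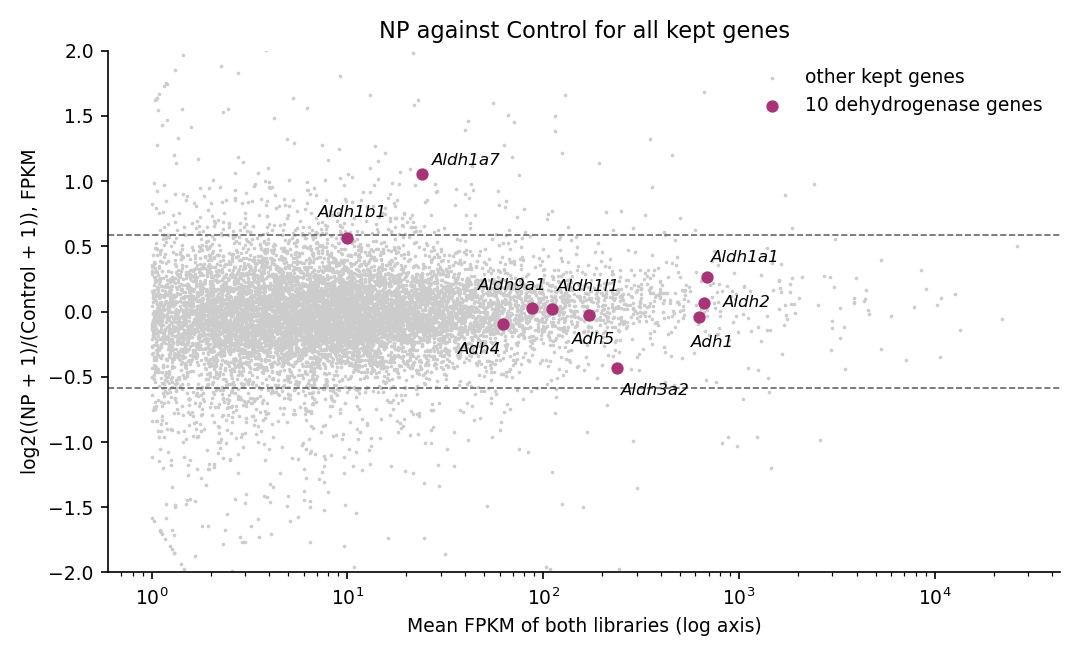
Difference between the libraries on the log2(FPKM + 1) scale against the mean FPKM of both (log axis), for 10543 kept genes in grey and the 10 dehydrogenase genes in colour; dashed lines mark 1.5-fold, and 98 genes beyond 2 on the log2 scale are not drawn. Aldh1a7 lies above the upper line at 1.06, Aldh1b1 just under it at 0.56 and Aldh3a2 at -0.43.

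Of 18 further ADH and ALDH genes 9 passed the filter, and 0 of these were 1.5-fold higher or lower, beside 3.59% and 5.33% of all kept genes. The NP interval was wholly higher for 1 of them, Aldh4a1, and wholly lower for 1, Adhfe1, beside 7.71% and 9.58% of all kept genes. Their median log2 difference was -0.06. Aldh4a1, the mitochondrial enzyme of proline breakdown, stood at 54.7 FPKM (51.2 to 58.2) for Control and 64.5 (60.7 to 68.4) for NP, 0.23 higher on the log2(FPKM + 1) scale beside 0.27 for Aldh1a1. Adhfe1, a mitochondrial hydroxyacid transhydrogenase, was at 23.9 FPKM (21.4 to 26.5) and 18.8 (16.7 to 21.0), and its span overlaps Gm6161 at 9.80 and 11.1 FPKM. Aldh6a1, of valine breakdown, was at 151 and 139.5 FPKM, and Aldh18a1, of proline synthesis, at 1.13 and 1.36 FPKM, both with overlapping intervals. The Aldh18a1 span overlaps Gm15801 at 24.9 and 23.3 FPKM. Aldh1a2, the retinaldehyde dehydrogenase of the embryo, and Aldh3a1, the abundant enzyme of cornea, were listed at 0 in both libraries.

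Other enzymes of ethanol and acetate differed by under 1.5-fold. Cyp2e1, the cytochrome P450 that also oxidises ethanol, stood at 5879.8 FPKM (5634 to 6125) for Control and 4812 (4611 to 5013) for NP. Cat, the peroxisomal catalase, was at 1052 and 1039 FPKM with overlapping intervals. Acss2, which activates acetate to acetyl-CoA in the cytosol, was at 14.5 FPKM (12.9 to 16.1) and 18.5 (16.7 to 20.2), and its span overlaps Gss at 41.0 and 39.3 FPKM. Acss3 was at 2.91 and 3.70 FPKM with overlapping intervals. Of the 4 genes that passed, of 5 listed, 0 were past 1.5-fold, and their median was 0.12. Of all kept genes 3.59% were past it upward and 5.33% downward.

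Of 25 listed retinoid genes around Aldh1a1 19 passed the filter, with 3 past 1.5-fold upward, 3 downward and a median of -0.03. Of all kept genes, at every level, 3.59% were past 1.5-fold upward and 5.33% downward, and the difference from these shares was not tested. The intervals of 12 of the 19 overlapped. The NP interval was wholly higher for 3 and wholly lower for 4, beside 7.71% and 9.58% of all kept genes. Overlapping were the abundant Rbp4 (4285 and 4572 FPKM), Rdh7 (761 and 802) and Retsat (696 and 679), named after their values were seen. The genes given next were low in both libraries. Cyp26a1, which degrades retinoic acid and is a known retinoic acid target, stood at 6.78 FPKM (5.47 to 8.08) for Control and 2.30 (1.57 to 3.04) for NP. Cyp26b1, of the same function, was at 2.55 FPKM (1.93 to 3.17) and 1.05 (0.686 to 1.42). Bcmo1, which cleaves beta-carotene to retinaldehyde, was at 1.93 FPKM (1.27 to 2.60) and 4.72 (3.76 to 5.69). Rdh5, a retinol dehydrogenase, was at 0.942 and 6.78 FPKM, and its span overlaps Bloc1s1, which was at 54.7 and 61.6 FPKM. Bco2, a carotenoid oxygenase named after its values were seen, was also past 1.5-fold, at 5.91 and 3.14 FPKM.

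For the pathways of the remaining members, counts past 1.5-fold are set beside those of all kept genes, 3.59% higher and 5.33% lower. Of 21 listed folate genes around Aldh1l1, 17 passed the filter. Of these 1 was higher and 0 lower, with a median of 0.08. That gene was Shmt1, the cytosolic serine hydroxymethyltransferase, at 55.2 FPKM (51.5 to 58.8) and 91.8 (85.7 to 97.9), whose span overlaps Smcr8 at 6.45 and 4.91 FPKM. Gnmt, the glycine methyltransferase of liver, was at 1155 FPKM (1106 to 1204) and 1620.4 (1549 to 1692). Gcsh, of the glycine cleavage system, was at 52.3 and 41.2 FPKM with separate intervals, and Tyms, which makes thymidylate, at 4.80 and 3.12 FPKM with overlapping ones.

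Partners of Adh5 in formaldehyde and glutathione handling had 0 of 5 genes past 1.5-fold and 5 overlapping intervals. Among all kept genes 3.59% were past 1.5-fold upward and 5.33% downward, and 17.3% had separate intervals. Esd, which hydrolyses the formyl product of ADH5, was at 93.6 and 101 FPKM. Gclc and Gclm, the subunits of the first enzyme of glutathione synthesis, had 141 against 138 FPKM and 69.0 against 66.0 FPKM. Gsr, glutathione reductase, was at 25.05 and 22.9 FPKM.

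Around Aldh3a2, 0 of the 5 lipid genes that passed, of 8 listed, were past 1.5-fold, with a median of 0.02. The shares of all kept genes were 3.59% upward and 5.33% downward, and the difference from them was not tested. Phyh, the peroxisomal phytanoyl-CoA hydroxylase of phytol breakdown, stood at 1281 FPKM (1224 to 1338) for Control and 948 (905 to 990) for NP, a ratio of 0.740. Hacl1, which acts after it, was at 112 FPKM (105 to 118) and 135 (128 to 142), and its span overlaps Btd at 32.3 and 42.8 FPKM. Acsl1, a long-chain acyl-CoA synthetase, had 688 against 692 FPKM and Sgpl1, sphingosine phosphate lyase, 19.4 against 20.4, both pairs overlapping. Of the 4 carnitine genes that passed beside Aldh9a1, of 5 listed, 1 was 1.5-fold higher, the same Shmt1. The share of all kept genes was again 3.59%, and the median of the 4 genes was -0.07. Bbox1, the last enzyme of carnitine synthesis, was at 38.9 and 34.4 FPKM with overlapping intervals. Slc22a5, the carnitine transporter, was at 36.7 FPKM (33.97 to 39.4) and 29.6 (27.4 to 31.9), and Shmt2 was at 56.7 and 58.0 FPKM.

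**Figure D4:**
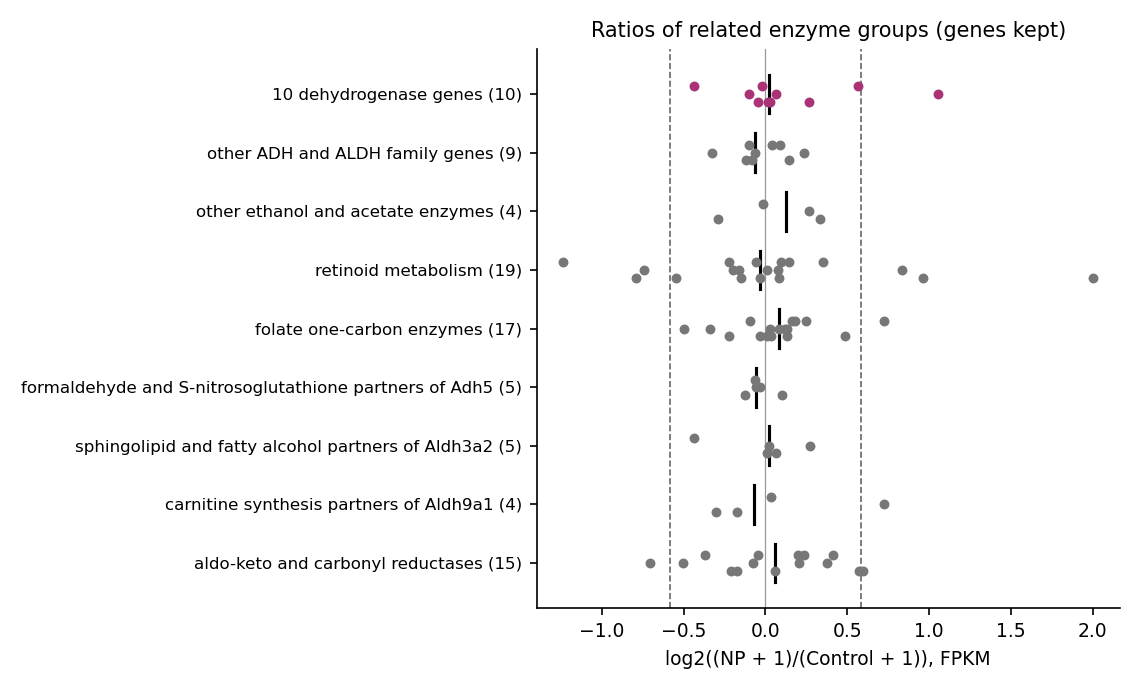
Differences between the libraries on the log2(FPKM + 1) scale for the 10 genes and 8 related lists; each point is a gene that passed the filter, numbers in parentheses count them, black bars are medians and dashed lines mark 1.5-fold. All medians lie between -0.07 and 0.12, and the retinoid list has the widest spread, from -1.23 to 2.002.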

How the data were processed

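RNA was measured in 2 liver libraries, 1 per group, made with an Illumina TruSeq RNA kit from Trizol extracts, per the labels' protocols. Per the submitters' processing notes, TopHat2 2.1.0, Cufflinks 2.2.1.0 and build mm9 were used, with no settings stated. The deposited values are FPKM with a 95% interval, and coverage, a signal not scaled to library size, per the file headers. No source used here states the total fragment number. NP depth relative to Control was 1.28 by coverage per FPKM and 1.12 by interval widths of 2589 rows of low level.

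FPKM of all rows of a gene were summed, and row half-widths were combined in quadrature, which leaves out covariance between rows. Of 37146 genes 10543 remained after removing those that averaged under 1 FPKM, had a row without OK status, had no row of 300 nt or more, or were named as small RNAs. Differences between libraries used log2(FPKM + 1), which understates those of low genes, and ratios of single genes are of plain FPKM. With 1 library per group no test was run. Named were the 10 genes and, of each other list, up to 2 genes with the highest and 2 with the lowest log2 ratio. Outside this rule, Aldh1a2, Aldh3a1, the other loci of the Adh cluster, overlapping genes and cell markers are given. So are genes stated to be named after their values were seen. Members and lists were chosen with earlier results of these data known. With 2 libraries no likeness of pattern between genes was computed. Starts in the files count from 0 and are printed counting from 1, in mm9, while RefSeq and GENCODE M21 sequences are GRCm38, and the builds were not mixed. Counting and summing were tested on simulated data. Python 3.11.15, pandas 2.3.3, numpy 2.4.6, matplotlib 3.10.9 and Biopython 1.88 were used. Alternatives covered the pseudocount, filter, scaling, rows, coverage, status and size rule. A result of the retinoid list is not reported here.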

Additional observations from a re-analysis of the deposited data

How the results depend on the processing

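Under the alternatives that can alter a gene's own difference, 65 values of single members departed from the first, and 63 of them by less than the combined half-width of both libraries' intervals. The others were Aldh1a7 with a pseudocount of 10, at 0.76, and Aldh2 by its highest row alone, at 0.16. Aldh1a7, Aldh1b1, Aldh1a1 and Aldh3a2 kept their direction throughout, from 0.76 to 1.18, 0.31 to 0.62, 0.23 to 0.30 and -0.48 to -0.41. The number of members at least 1.5-fold higher, 1 at first, was 2 with a pseudocount of 0.1, with NP scaled to equal upper quartiles and by plain FPKM. It was 0 with Aldh1a1 and Aldh1a7 summed. At a looser limit (0.32 in log2) in place of 1.5-fold, 2 members were higher and 1 lower. Plain FPKM, the summed pair and the removal of genes at 0 were chosen after seeing the data. Among all genes 379 were higher and 562 lower. These counts became 110 and 120 with a pseudocount of 10, 218 and 247 for genes averaging 5 FPKM or more, 120 and 199 at 2-fold, and 1077 and 1480 at the looser limit. The share of higher calls went from 40.3% to 31.7% by coverage times length. Scalings moved the median of all genes by at most 0.05 in log2. No paired analysis was possible because each group has 1 library.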

Other observations

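Aldo-keto and carbonyl reductases, which reduce aldehydes and ketones, the opposite direction to the dehydrogenases, differed in both directions. Of 19 listed genes 15 passed the filter. Of these 1 (Cbr1) was at least 1.5-fold higher in NP and 1 (Akr1e1) lower, beside 3.59% and 5.33% of all kept genes. NP intervals were wholly higher for 5 and wholly lower for 2, beside 7.71% and 9.58% of all kept genes. Among genes averaging 50 FPKM or more the interval shares were 19.2% and 14.9%. The difference from these shares was not tested, and the median log2 difference was 0.06. Cbr1, a carbonyl reductase, stood at 45.7 FPKM (41.1 to 50.3) for Control and 69.5 (63.8 to 75.2) for NP. Akr1d1, the steroid 5-beta-reductase of bile acid synthesis, was at 16.4 FPKM (14.6 to 18.1) and 24.8 (22.7 to 26.9). Akr1e1 was at 8.52 FPKM (6.97 to 10.1) and 4.84 (3.75 to 5.93), and the intervals of Akr1b3, aldose reductase, overlapped at 1.35 and 0.662 FPKM. The 4 genes of the list above 100 FPKM in both libraries, named after their values were seen, were Akr1c6, Akr1a4, Akr1c14 and Akr7a5. The intervals overlapped for Akr1c6 at 527 and 511 FPKM and for Akr1a4 at 257 and 267 FPKM. The NP interval was wholly higher for Akr1c14 at 102 and 117 FPKM and for Akr7a5 at 109 and 128 FPKM.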
